A study of Mus musculus with 16 samples.

Results

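The 33 genes described here encode enzymes and regulators that make cholesterol and fatty acids in the cell. They were chosen by name: 23 sterol genes and 10 fatty acid genes, found by their Ensembl identifiers among the 43430 genes of the count table. Of these 33, 31 passed a filter on low counts and could be tested. Scd1 and Elovl6 did not pass, with 0 to 7 and 0 to 14 counts per library.

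Cholesterol is built from acetyl-CoA through mevalonate, squalene and lanosterol, and the same acetyl-CoA feeds fatty acid synthesis. Both branches are run by SREBP transcription factors: SREBP2, encoded by Srebf2, acts mainly on sterol genes, and SREBP1, encoded by Srebf1, mainly on fatty acid genes. When membrane sterol is low, SCAP carries SREBP from the endoplasmic reticulum to the Golgi for cleavage, and when sterol is ample, the INSIG proteins hold SCAP back. In macrophages these pathways are known to be rewired during inflammatory activation.

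Gene expression was measured by RNA sequencing of bone marrow-derived macrophages, phagocytes grown from C57BL/6J mouse marrow with 20 ng/mL macrophage colony-stimulating factor and harvested on day 6. The study compared 4 groups of 4 libraries each: cells in MEM lacking serine with lipopolysaccharide (LPS) at 100 ng/mL, cells in complete MEM with LPS, untreated cells in MEM lacking serine, and untreated cells in complete MEM. LPS is a bacterial outer membrane component sensed by Toll-like receptor 4, and RNA was taken 4 h after it. No mutant or transgene is named, and all groups shared the marrow culture before plating in MEM. Whether the 4 replicates of a group come from separate animals is not stated, so p-values measure only the spread between these libraries.

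Total counts ran from 6240112 to 8092528 in LPS-treated libraries and from 2871477 to 10043362 in untreated ones. The lowest was replicate 4 of untreated cells without serine, which stood apart: it had 12900 genes with a count, against 14000 to 16031 in the other libraries, and its 20 most abundant genes held 23.1% of its counts. Its members deviated from the median of the other libraries of its group by a median of 0.70 on the log2 scale. In the other 15 libraries this value was 0.11 to 0.28. Over all tested genes it was 0.67, against 0.12 to 0.24, so the shift was not particular to the members. Results that rest on this library are given with and without it. Replicate 1 of each group had no Xist count and 1214 to 2420 counts of Y-linked genes, and the other 12 libraries had at most 16, so replicate 1 was male. All 10 macrophage markers were present, with a summed level of 17300 to 29220 CPM (counts scaled to a common library size). Dendritic cell markers, of which Xcr1 alone averaged over 1 CPM, summed to 8.97 to 11.9 CPM in LPS-treated libraries without serine and 12.4 to 15.4 CPM in those with serine, against 1.54 to 2.08 CPM in untreated libraries without serine and 0.557 to 2.02 CPM with serine. Neutrophil markers summed to 7.37 to 103.8 CPM, stromal markers to 0 to 22.2 CPM and fat cell markers, nearly all Fabp4, to 29.8 to 155.5 CPM in all. Their part in the results was not tested. Markers of T and NK cells, B cells and red cells summed to under 1 CPM in each library, and the fat cell genes Adipoq, Cfd and Lep were at 0. In such bulk samples fewer cells of a type and less RNA per cell cannot be told apart.

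Promoter sequence was available for 26 members, 19 sterol and 7 fatty acid genes, as 250 bases before and 50 bases from the annotated start (RefSeq, GRCm38.p6). A CCAAT box, the letters CCAAT on either strand and the site of the SREBP partner NF-Y, stood in a promoter of 17 of the 19 sterol genes and 4 of the 7 fatty acid genes. Of all 27025 genes with a promoter 41.1% held one. The sterol regulatory element TCACNCCAC on either strand was found in Hmgcs1 alone, 1 of 19 sterol genes, against 1.44% of all genes. A shorter form, TCACCNCA on either strand, was chosen after reading these promoters and overlaps the first. It stood in 4 sterol genes, Hmgcs1, Srebf2, Hsd17b7 and Cyp51, at -137, -162, -117 and -88 from the start, in no fatty acid gene, and in 5.08% of all genes. The E-box CACGTG, which reads alike on both strands, was in 5 of 19 sterol genes, none of the 7 fatty acid genes, and 8.09% of all genes. These matches are letters in a window and not measured binding.

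Members without either form, such as Idi1 and Dhcr7, also moved with LPS, and a link between these elements and the changes was not tested. The promoters of the 4 sterol genes with the shorter form are shown. Those of Insig1 and Fasn stand beside them as a sterol feedback gene and a fatty acid gene. They lie at chr13:119690101-119690400, plus strand, for Hmgcs1, chr5:4104648-4104947, minus strand, for Cyp51, chr1:169969156-169969455, minus strand, for Hsd17b7, chr15:82147019-82147318, plus strand, for Srebf2, chr5:28071162-28071461, plus strand, for Insig1, and chr11:120824498-120824797, minus strand, for Fasn. Capitals mark either form of the sterol regulatory element and each CCAAT box on either strand.
Hmgcs1: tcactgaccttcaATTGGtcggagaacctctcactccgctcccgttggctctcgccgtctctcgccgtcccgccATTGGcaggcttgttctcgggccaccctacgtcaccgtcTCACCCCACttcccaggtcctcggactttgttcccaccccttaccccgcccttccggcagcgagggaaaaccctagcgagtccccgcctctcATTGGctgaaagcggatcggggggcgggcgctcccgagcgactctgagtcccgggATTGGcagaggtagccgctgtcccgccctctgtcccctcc
Cyp51: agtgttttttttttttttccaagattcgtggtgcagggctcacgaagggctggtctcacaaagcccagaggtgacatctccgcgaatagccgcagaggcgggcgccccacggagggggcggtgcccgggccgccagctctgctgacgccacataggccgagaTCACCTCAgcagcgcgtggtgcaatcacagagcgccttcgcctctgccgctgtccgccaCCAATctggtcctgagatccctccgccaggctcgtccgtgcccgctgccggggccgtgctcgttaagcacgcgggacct
Hsd17b7: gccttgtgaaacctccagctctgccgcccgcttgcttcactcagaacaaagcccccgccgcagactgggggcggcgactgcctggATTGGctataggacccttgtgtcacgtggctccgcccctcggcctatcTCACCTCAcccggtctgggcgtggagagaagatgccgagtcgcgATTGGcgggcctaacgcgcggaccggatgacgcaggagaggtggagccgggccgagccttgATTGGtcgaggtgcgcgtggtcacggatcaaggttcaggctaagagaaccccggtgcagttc
Srebf2: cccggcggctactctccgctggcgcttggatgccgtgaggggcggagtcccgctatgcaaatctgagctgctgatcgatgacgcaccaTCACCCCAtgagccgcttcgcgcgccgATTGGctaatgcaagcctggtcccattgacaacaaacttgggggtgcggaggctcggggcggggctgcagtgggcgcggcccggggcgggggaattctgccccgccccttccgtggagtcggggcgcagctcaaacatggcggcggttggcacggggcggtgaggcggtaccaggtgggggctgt
Insig1: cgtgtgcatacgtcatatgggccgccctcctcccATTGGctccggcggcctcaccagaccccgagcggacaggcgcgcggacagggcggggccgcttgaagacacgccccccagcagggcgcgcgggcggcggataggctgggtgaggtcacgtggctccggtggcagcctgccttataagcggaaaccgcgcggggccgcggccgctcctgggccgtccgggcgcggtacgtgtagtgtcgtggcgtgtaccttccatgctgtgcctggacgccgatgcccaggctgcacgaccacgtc
Fasn: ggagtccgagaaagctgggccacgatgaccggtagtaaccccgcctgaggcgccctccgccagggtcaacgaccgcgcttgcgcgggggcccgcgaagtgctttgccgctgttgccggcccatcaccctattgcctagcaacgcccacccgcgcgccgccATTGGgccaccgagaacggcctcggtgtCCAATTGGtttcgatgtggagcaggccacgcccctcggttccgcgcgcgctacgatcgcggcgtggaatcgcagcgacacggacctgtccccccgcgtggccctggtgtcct

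Hmgcs1 held 4 CCAAT boxes and Hsd17b7 and Fasn 3 each, while Cyp51, Srebf2 and Insig1 held 1 each.

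Set per kilobase of deposited gene length, Srebf2 was the most abundant member, with a mean over the 4 groups of 26.7 CPM per kb. Hmgcs1 followed with 22.1, Fads1 with 18.3, Insig1 with 15.98 and Scap with 12.7 CPM per kb. At the other end Scd1 and Elovl6 had 0.0692 and 0.128 CPM per kb, and Tm7sf2, a sterol reductase, had 0.180. The deposited length of Tm7sf2, 13723 bases, is longer than its span on chromosome 19, 6062821 to 6068373. Deposited lengths are thus not all transcript lengths, and this order depends in part on them. The order changed with the group: Fads1, a fatty acid desaturase, led in untreated cells with serine at 31.03 CPM per kb, and Srebf2 led after LPS at 33.03 without serine and 39.7 with serine.

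**Figure D1:**
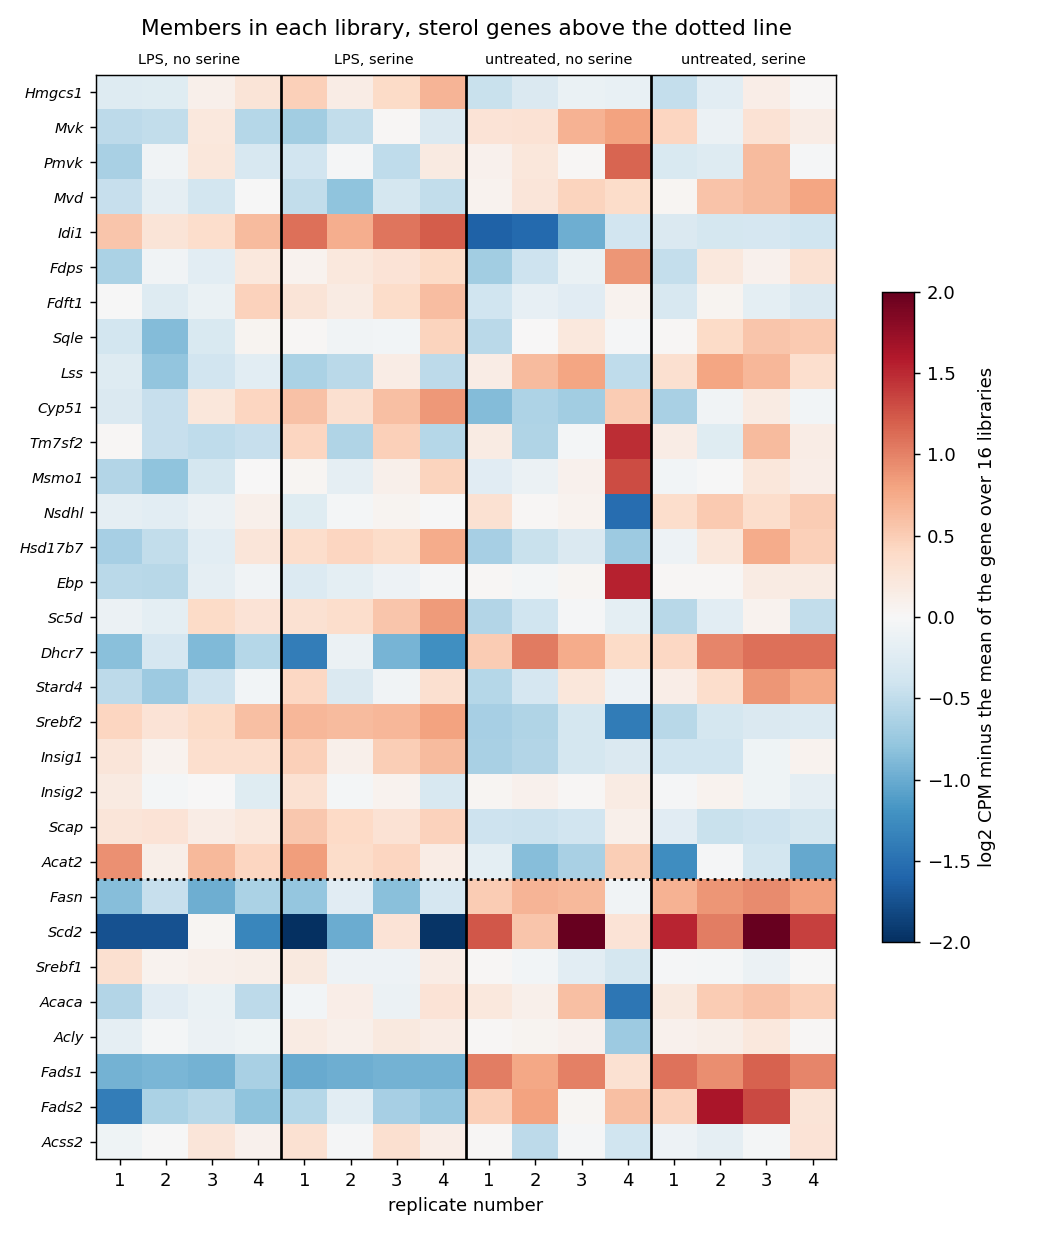
Each row is 1 of the 31 tested members and each column 1 library, grouped as LPS without serine, LPS with serine, untreated without serine and untreated with serine. Colour gives the log2 CPM minus the mean of that gene over the 16 libraries, so red is above and blue below it, with colours held at 2 either way. Fasn, Scd2, Fads1 and Fads2 are bluer in the LPS-treated columns, sterol genes go both ways, and replicate 4 of untreated cells without serine differs from its 3 companions.

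After LPS a set of fatty acid genes was lower in both media, and sterol genes moved in both directions. With serine, 9 of 23 sterol genes rose and 4 fell, while 0 of 8 tested fatty acid genes rose and 4 fell. Over all 11004 genes tested 27.6% rose and 28.2% fell, so the sterol and fatty acid shares are read against a response of more than 1 gene in 4 each way. The median log2 fold change was 0.08 over sterol genes, -0.88 over fatty acid genes and -0.03 over all genes. Without serine, 5 sterol genes rose and 6 fell, and 1 fatty acid gene rose and 4 fell, against 27.1% and 29.7% of all genes. The medians there were -0.09, -0.84 and -0.12. Here LPS-treated cells were set over untreated ones in an unpaired quasi-likelihood model of all 16 libraries. The threshold was an adjusted p under 0.05, and changes are log2 fold changes ± SE. Groups that did not overlap were common after LPS. With serine 30.7% of all genes were higher without overlap and 30.9% lower, and without serine 25.3% and 22.4%. Of 23 sterol genes these were 9 and 5 with serine and 4 and 4 without it. Of 8 fatty acid genes they were 0 and 4, and 1 and 4.

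These directions depend on how libraries were scaled. The trimmed mean (TMM) factors used were 0.781 to 0.861 in LPS-treated libraries and 1.035 to 1.274 in untreated ones. Scaling by total count alone moves each LPS fold change by about -0.62 with serine and -0.58 without it. Then 2 sterol genes rose and 12 fell with serine, and 7 of 8 fatty acid genes fell, against 15.1% of all genes higher and 58.2% lower. Without serine 2 sterol genes rose and 14 fell, and 6 fatty acid genes fell, against 15.3% and 59.7%. Idi1 and Srebf2 were the 2 that rose on both scales and in both media, and the falls of Dhcr7, Mvd, Lss, Mvk, Fasn, Scd2, Fads1 and Fads2 deepened.

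**Figure D2:**
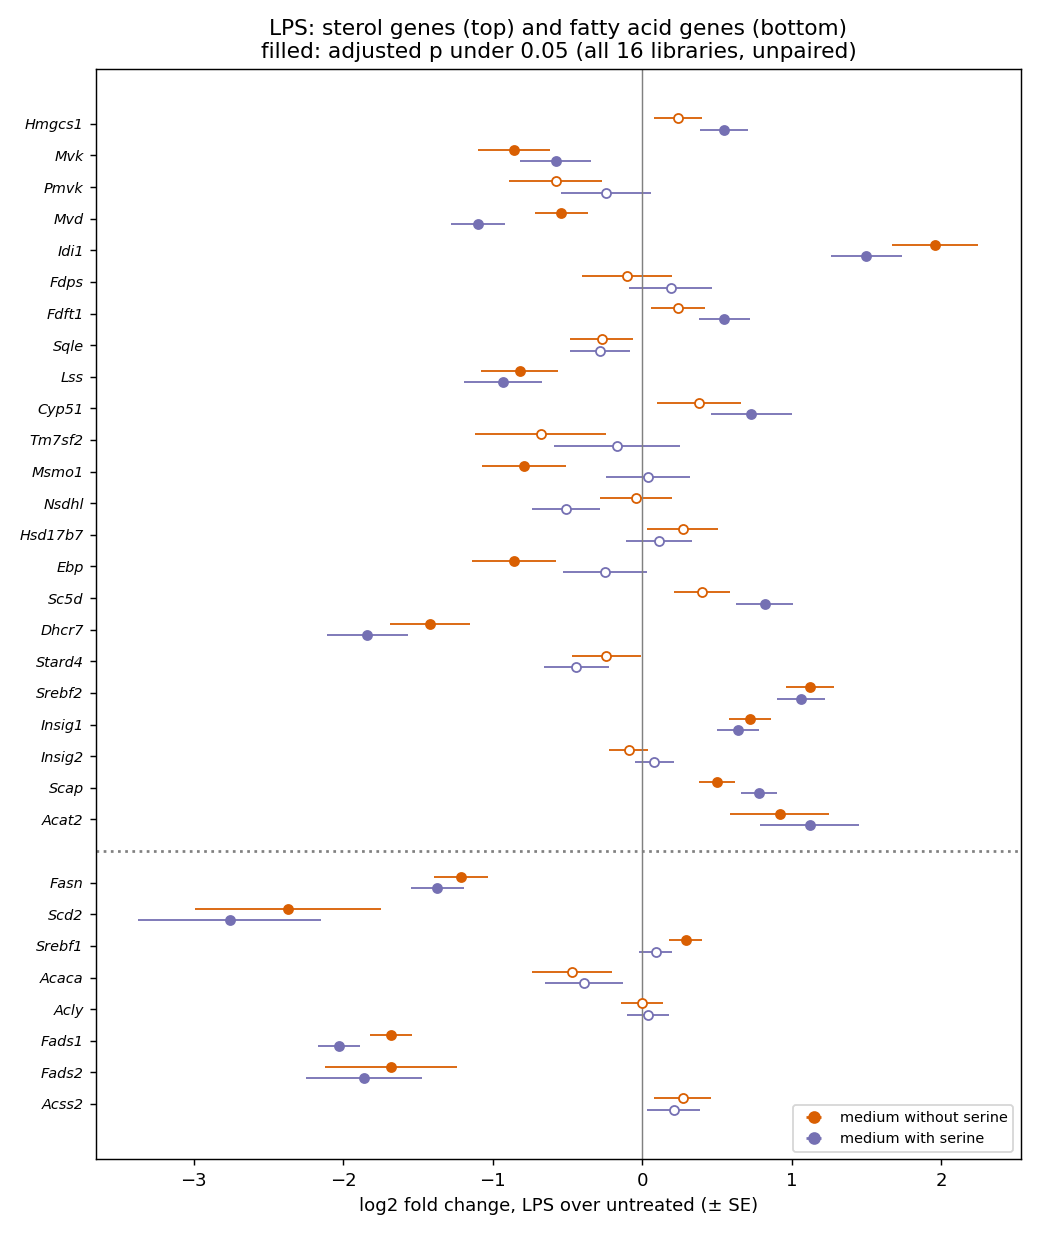
Points give the log2 fold change of LPS-treated over untreated libraries for each tested member, in medium without serine and with serine, with bars of 1 SE and filled points for an adjusted p under 0.05. Idi1 lies farthest right in both media, and Scd2, Fads1, Fads2, Dhcr7 and Fasn farthest left. With total-count scaling points shift left by about 0.62 with serine and 0.58 without it, which turns 9 members negative with serine (Hmgcs1, Fdps, Fdft1, Msmo1, Hsd17b7, Insig2, Srebf1, Acly and Acss2) and 8 without it (Hmgcs1, Fdft1, Cyp51, Hsd17b7, Sc5d, Scap, Srebf1 and Acss2).

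Among the regulators, Srebf2, Scap and Insig1 rose with LPS in both media. Srebf2 had 166, 149, 160.2 and 185 CPM in LPS-treated libraries without serine, and 195, 191, 193 and 215 CPM in those with serine. The untreated values of Srebf2 were 77.3, 80.9, 95.8 and 46.2 CPM without serine and 83.3, 95.7, 99.7 and 101 CPM with serine. Every LPS-treated library was above every untreated one, and the change was 1.12 ± 0.16 (adjusted p = 1.88e-05) without serine and 1.06 ± 0.16 (adjusted p = 3.05e-05) with serine.

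Scap, the SREBP escort, had 62.4, 63.5, 58.1 and 61.2 CPM in LPS-treated libraries without serine and 76.2, 69.3, 64.5 and 72.4 CPM with serine, against 39.5, 38.8, 40.3 and 56.7 CPM in untreated libraries without serine and 44.7, 38.6, 39.5 and 41.2 CPM with serine. Its groups did not overlap in either medium, and the change was 0.50 ± 0.12 (adjusted p = 0.00195) without serine and 0.78 ± 0.12 (adjusted p = 2.77e-05) with serine. With total-count scaling Scap kept its sign with serine, at 0.17, and turned to -0.06 without serine.

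Insig1, an SREBP target that retains SCAP, had 49.01, 43.9, 52.5 and 52.6 CPM in LPS-treated libraries without serine and 58.1, 44.4, 58.6 and 64.3 CPM with serine, against 26.5, 27.6, 32.6 and 34.1 CPM in untreated libraries without serine and 31.5, 31.3, 38.97 and 43.4 CPM with serine. LPS-treated libraries lay above untreated ones in both media, with changes of 0.72 ± 0.14 (adjusted p = 0.000408) without serine and 0.64 ± 0.14 (adjusted p = 0.00103) with serine. With total-count scaling these became 0.15 and 0.01. Insig2, the second retention protein, had 26.9, 23.1, 23.9 and 19.9 CPM in LPS-treated libraries without serine and 29.2, 22.97, 24.9 and 18.95 CPM with serine, against 24.2, 25.03, 24.1 and 26.7 CPM in untreated libraries without serine and 23.2, 24.8, 22.3 and 20.9 CPM with serine. Its ranges overlapped in both media, and it gave -0.09 ± 0.13 (adjusted p = 0.596) without serine and 0.08 ± 0.13 (adjusted p = 0.657) with serine, a value that total-count scaling turns to -0.54.

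Srebf1 had 97.7, 82.01, 83.4 and 84.6 CPM in LPS-treated libraries without serine and 89.2, 72.7, 72.3 and 86.5 CPM with serine, against 79.5, 74.9, 67.5 and 61.1 CPM in untreated libraries without serine and 76.6, 75.7, 71.7 and 76.97 CPM with serine. Without serine the groups did not overlap and it rose by 0.29 ± 0.11 (adjusted p = 0.0323), a call that is lost when replicate 1 of LPS-treated cells without serine is left out (0.23) or replicate 3 of untreated cells without serine (0.27), and that total-count scaling turns to -0.28. With serine the ranges overlapped and the change was 0.09 ± 0.11 (adjusted p = 0.511), or -0.53 with total-count scaling.

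The ratio of Insig1 to Insig2 within a library does not depend on scaling. Its log2 values averaged 1.08 ± 0.24 after LPS against 0.26 ± 0.15 untreated in medium without serine, and 1.23 ± 0.37 after LPS against 0.66 ± 0.33 untreated in medium with serine (SD, n = 4). By an exact two-sided permutation test the differences of 0.82 and 0.57 had p = 0.02857, the smallest that 70 arrangements allow, and p = 0.0857. Over the 8 ratio tests made the Benjamini-Hochberg adjusted values were 0.114 and 0.171, so neither passed. Each of the 4 LPS-treated libraries without serine was above each untreated one.

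With serine and TMM scaling the first 2 enzymes of the listed pathway rose, and the kinase Mvk and the decarboxylase Mvd after them fell. Acat2, the thiolase that joins acetyl-CoA units, had 7.76, 4.34, 6.35 and 5.46 CPM in LPS-treated libraries without serine and 7.29, 5.18, 5.42 and 4.44 CPM with serine, against 3.43, 2.08, 2.44 and 5.73 CPM in untreated libraries without serine and 1.52, 3.89, 3.02 and 1.81 CPM with serine. It rose by 0.92 ± 0.33 (adjusted p = 0.0249) without serine and 1.12 ± 0.33 (adjusted p = 0.00796) with serine. With total-count scaling these became 0.36 and 0.51 and neither passed. Without serine the groups overlapped through replicate 4 of untreated cells alone, and the call is lost without replicate 1 (0.76) or 3 (0.89) of LPS-treated cells or replicate 2 (0.74) or 3 (0.81) of untreated cells. Mouse Acat2 has a near-identical neighbour, Acat3, so its counts are uncertain.

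Hmgcs1, the HMG-CoA synthase, had 58.3, 58.8, 74.4 and 83.4 CPM in LPS-treated libraries without serine, and 97.1, 77.2, 91.1 and 111 CPM in those with serine. Untreated values of Hmgcs1 were 50.9, 56.7, 63.5 and 62.7 CPM without serine and 50.2, 60.3, 76.2 and 70.6 CPM with serine. With serine all LPS-treated libraries exceeded all untreated ones and Hmgcs1 rose by 0.55 ± 0.16 (adjusted p = 0.00673). Without serine the ranges overlapped and the change was 0.24 ± 0.16 (adjusted p = 0.214). Total-count scaling turns the values to -0.07 and -0.34.

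Mvk, the mevalonate kinase, had 3.04, 3.12, 5.23 and 2.92 CPM in LPS-treated libraries without serine and 2.68, 3.11, 4.57 and 3.63 CPM with serine, against 5.499, 5.54, 7.44 and 8.095 CPM in untreated libraries without serine and 6.16, 4.095, 5.53 and 5.01 CPM with serine. The groups did not overlap without serine and overlapped with it. Mvk fell in both media, with log2 changes of -0.86 ± 0.24 (adjusted p = 0.00557) without serine and -0.58 ± 0.24 (adjusted p = 0.0492) with serine. The second call is weak: of 16 libraries left out in turn, it was lost in 12, with values of -0.46 to -0.59, and held only without replicate 3 of either LPS-treated group, replicate 4 of untreated cells without serine or replicate 2 of untreated cells with serine. Pmvk, the next kinase, had 3.04 to 5.79 CPM after LPS and 3.94 to 11.5 CPM untreated, and passed in neither medium.

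Mvd, which decarboxylates mevalonate diphosphate, had 5.78, 7.11, 6.17 and 7.99 CPM in LPS-treated libraries without serine and 5.66, 4.49, 6.27 and 5.65 CPM with serine, against 8.53, 9.597, 11.03 and 10.5 CPM in untreated libraries without serine and 8.29, 12.2, 12.7 and 14.2 CPM with serine. No LPS-treated library reached the untreated range in either medium, and Mvd fell in both media, with log2 changes of -0.54 ± 0.18 (adjusted p = 0.0188) without serine and -1.10 ± 0.18 (adjusted p = 8.04e-05) with serine. The call without serine is lost without replicate 1 (-0.47) or 3 (-0.50) of LPS-treated cells or replicate 3 (-0.48) of untreated cells.

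Idi1, the isopentenyl diphosphate isomerase (chr13:8885501-8892451, plus strand), made the largest rise of any tested member. It had 3.501, 2.77, 2.99 and 3.703 CPM in LPS-treated libraries without serine and 5.21, 3.97, 5.08 and 5.65 CPM with serine, against 0.558, 0.594, 1.03 and 1.69 CPM in untreated libraries without serine and 1.82, 1.74, 1.76 and 1.67 CPM with serine. All LPS-treated libraries were above all untreated ones, by 3.895-fold without serine and 2.82-fold with serine. On the log2 scale these are 1.96 ± 0.29 (adjusted p = 2.02e-05) and 1.50 ± 0.24 (adjusted p = 5.46e-05). Fdps, which makes farnesyl diphosphate, had 5.94 to 12.3 CPM after LPS and 5.66 to 17.5 CPM untreated, and did not pass.

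Between farnesyl diphosphate and the first sterol, Fdft1 rose with serine and Lss fell in both media on the TMM scale. Fdft1, the squalene synthase, had 10.2, 8.496, 9.35 and 14.2 CPM in LPS-treated libraries without serine and 12.4, 11.6, 13.4 and 15.9 CPM with serine, against 7.73, 9.102, 8.72 and 10.8 CPM in untreated libraries without serine and 8.18, 10.7, 8.93 and 8.35 CPM with serine. With serine its groups did not overlap and it rose by 0.55 ± 0.17 (adjusted p = 0.0118), which total-count scaling turns to -0.07. Without serine the change was 0.24 ± 0.18 (adjusted p = 0.265). Sqle, the squalene epoxidase, had 11.3 to 28.6 CPM after LPS and 14.2 to 30.7 CPM untreated and passed in neither medium.

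Lss, the lanosterol synthase that closes the ring, had 4.87, 3.29, 4.49 and 5.07 CPM in LPS-treated libraries without serine and 3.72, 3.97, 6.61 and 4.03 CPM with serine, against 6.54, 9.300, 10.4 and 4.05 CPM in untreated libraries without serine and 7.48, 10.4, 9.55 and 7.52 CPM with serine. It fell in both media, with log2 changes of -0.82 ± 0.26 (adjusted p = 0.0148) without serine and -0.93 ± 0.26 (adjusted p = 0.00585) with serine. Without serine the ranges overlapped through replicate 4 of untreated cells alone, and with serine they did not. The call without serine is lost without replicate 2 of LPS-treated cells (-0.70) or replicate 3 of untreated cells (-0.65).

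Of the enzymes that turn lanosterol into cholesterol, Cyp51 and Sc5d rose with serine (0.11 and 0.19 with total-count scaling) and Dhcr7 fell in both media. Cyp51, the lanosterol demethylase, had 24.2, 21.3, 34.8 and 39.8 CPM in LPS-treated libraries without serine and 44.7, 36.8, 45.1 and 54.04 CPM with serine, against 16.02, 19.1, 18.2 and 42.2 CPM in untreated libraries without serine and 18.7, 28.3, 33.2 and 28.5 CPM with serine. It rose by 0.73 ± 0.27 (adjusted p = 0.0319) with serine, and each LPS-treated library was above each untreated one. That call is lost without replicate 1 (0.74), 3 (0.73) or 4 (0.64) of LPS-treated cells or replicate 1 (0.59), 2 (0.75) or 4 (0.76) of untreated cells. Without serine the change was 0.38 ± 0.28 (adjusted p = 0.257) with replicate 4 of untreated cells and 0.75 (adjusted p = 0.00691) without it. That library had 42.2 CPM of Cyp51 and its companions 16.02 to 19.1 CPM.

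Sc5d, a sterol desaturase, had 16.7, 15.8, 23.7 and 22.02 CPM in LPS-treated libraries without serine and 22.5, 23.3, 26.8 and 33.1 CPM with serine, against 12.03, 13.8, 17.8 and 15.9 CPM in untreated libraries without serine and 12.3, 15.7, 19.1 and 12.8 CPM with serine. It rose by 0.82 ± 0.19 (adjusted p = 0.00144) with serine, where the groups did not overlap, and changed by 0.40 ± 0.19 (adjusted p = 0.0827) without serine, or 0.51 (adjusted p = 0.0471) without replicate 3 of untreated cells. With the replicate number as a block the value without serine passed, with adjusted p = 0.0254. Dhcr7, the reductase of the last step, had 2.74, 3.99, 2.62 and 3.31 CPM in LPS-treated libraries without serine and 1.79, 4.66, 2.54 and 2.02 CPM with serine, against 7.33, 10.8, 8.72 and 6.75 CPM in untreated libraries without serine and 6.87, 10.2, 11.2 and 11.3 CPM with serine. Its groups did not overlap, and it fell to 0.373 of the untreated level without serine and 0.2798 of it with serine. These are -1.42 ± 0.27 (adjusted p = 0.000318) and -1.84 ± 0.27 (adjusted p = 2.49e-05) on the log2 scale.

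Msmo1 and Ebp, a sterol methyl oxidase and the sterol isomerase, fell without serine by sizes that changed with replicate 4 of untreated cells. Msmo1 had 29.8, 25.8, 35.1 and 45.4 CPM in LPS-treated libraries without serine and 46.3, 39.9, 48.6 and 61.3 CPM with serine, against 38.4, 41.4, 47.96 and 112 CPM in untreated libraries without serine and 43.2, 44.95, 52.8 and 49.6 CPM with serine. Its change without serine was -0.79 ± 0.28 (adjusted p = 0.026) with that library and -0.32 (adjusted p = 0.0991) without it. With the replicate number as a block it passed in both, at -0.72 (adjusted p = 0.00481) with that library and -0.43 (adjusted p = 0.000843) without it. The Msmo1 call in the unblocked model is also lost without replicate 1 (-0.72) or 2 (-0.67) of LPS-treated cells. Ebp had 17.1, 16.8, 21.9 and 23.6 CPM in LPS-treated libraries without serine and 20.5, 21.8, 23.2 and 24.4 CPM with serine, against 25.4, 24.3, 25.5 and 72.9 CPM in untreated libraries without serine and 25.3, 25.4, 28.03 and 27.8 CPM with serine. Without serine no LPS-treated library reached the untreated range, and the change was -0.86 ± 0.28 (adjusted p = 0.0168) with that library and -0.34 (adjusted p = 0.0155) without it. With serine the groups did not overlap either, and the change was -0.25 ± 0.28 (adjusted p = 0.488). That value passed with the block once replicate 4 of untreated cells without serine was left out (-0.25, adjusted p = 0.013) and in a paired model of these 2 groups alone (-0.26, adjusted p = 0.0224), which was chosen after seeing the data.

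Among the 4 other late members, Tm7sf2, Nsdhl, Hsd17b7 and Stard4, none passed with LPS in the 16-library model. Tm7sf2 had 1.38 to 3.22 CPM after LPS and 1.385 to 6.75 CPM untreated. Nsdhl, a sterol dehydrogenase, had 6.996 to 8.97 CPM after LPS and 2.698 to 12.1 CPM untreated, and gave -0.51 ± 0.23 (adjusted p = 0.0753) with serine and adjusted p = 0.00174 when replicate 4 of untreated cells without serine was left out. Stard4, a sterol carrier, had 7.63 to 17.1 CPM after LPS and 8.45 to 23.6 CPM untreated, and gave -0.44 ± 0.22 (adjusted p = 0.104) with serine and -0.56 (adjusted p = 0.0481) without replicate 1 of untreated cells with serine, or -0.42 (adjusted p = 0.0288) with the block and without replicate 4 of untreated cells without serine. Hsd17b7 gave 0.11 with serine and 0.27 without it, which total-count scaling turns to -0.50 and -0.32.

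**Figure D3:**
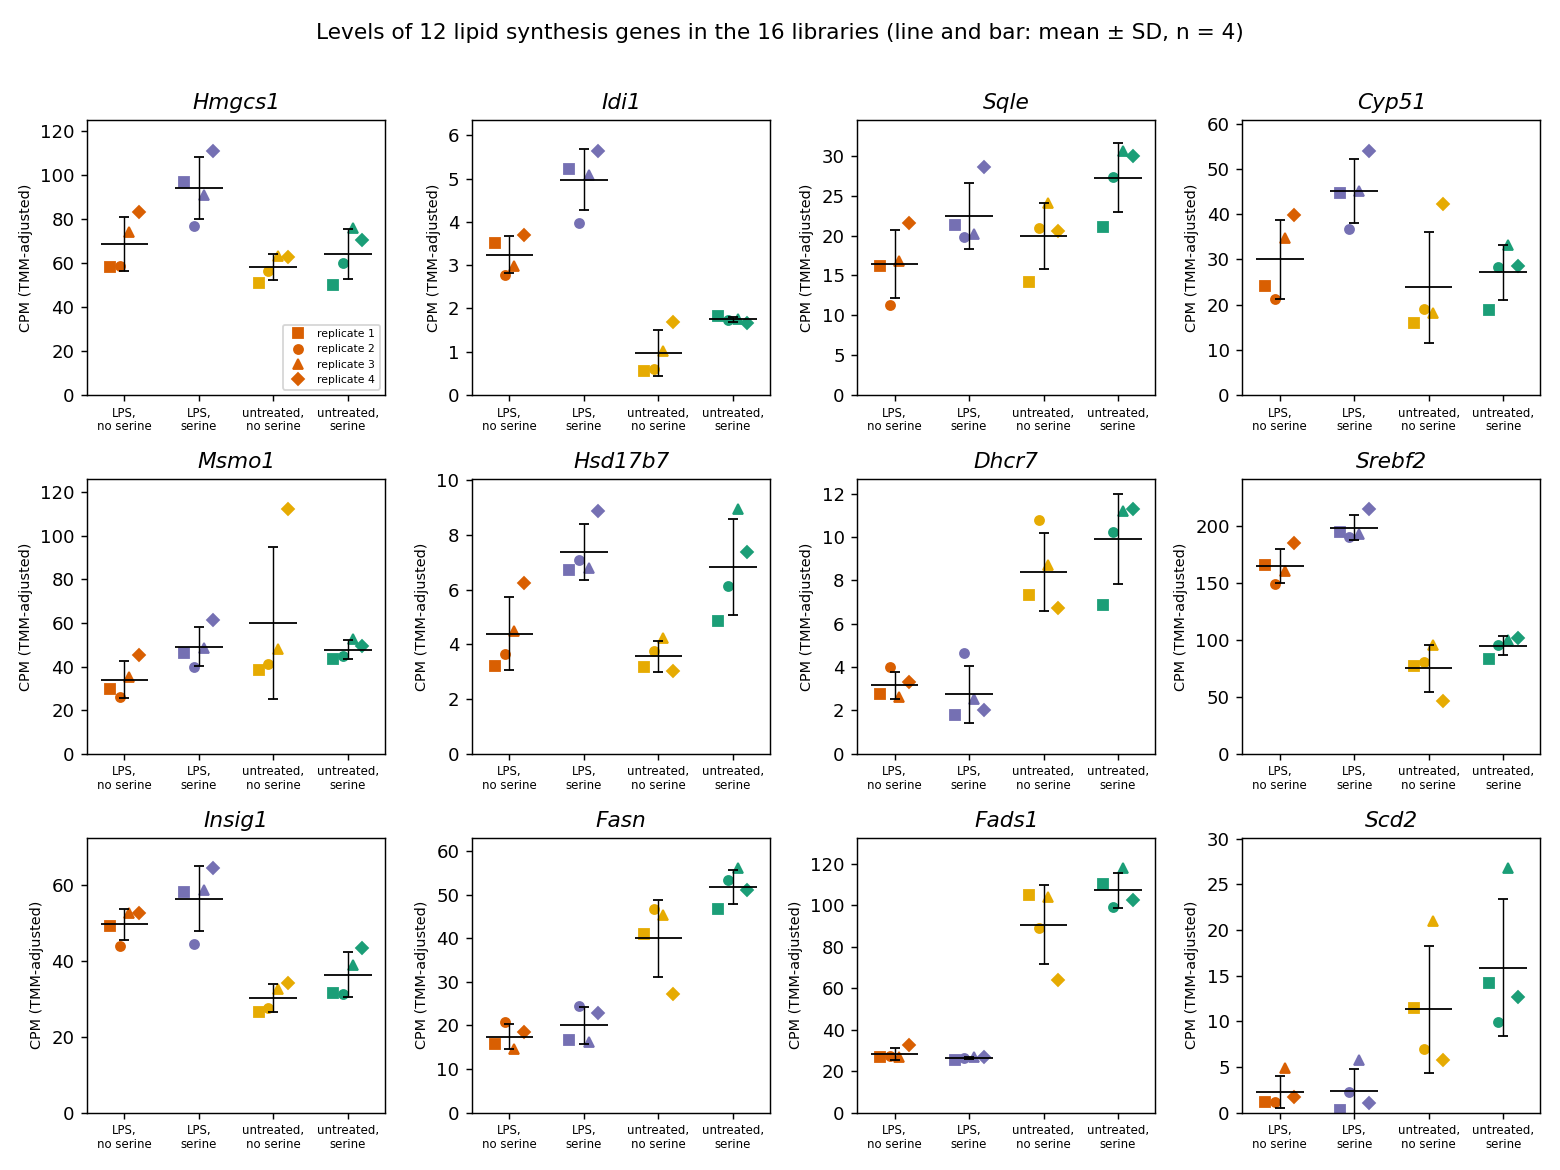
Points are the TMM-scaled CPM of 12 members in each of 16 libraries, with a marker shape for each replicate number and the group mean ± SD as line and bar (n = 4), on axes that start at 0. Idi1 and Srebf2 are higher after LPS, Dhcr7, Fasn, Fads1 and Scd2 lower, and within LPS-treated cells Idi1, Hsd17b7 and Srebf2 have no library without serine at the level of those with serine.

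Fatty acid genes fell at the synthase and at the desaturases. Fasn, the fatty acid synthase, had 15.8, 20.8, 14.6 and 18.5 CPM in LPS-treated libraries without serine and 16.7, 24.5, 16.1 and 22.8 CPM with serine, against 40.9, 46.6, 45.3 and 27.3 CPM in untreated libraries without serine and 46.7, 53.3, 56.1 and 51.1 CPM with serine. The groups did not overlap in either medium, and it fell in both media, with log2 changes of -1.21 ± 0.18 (adjusted p = 2.35e-05) without serine and -1.37 ± 0.18 (adjusted p = 4.97e-06) with serine.

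Fads1 (chr19:10182888-10196870, plus strand) and Fads2 (chr19:10064164-10101503, minus strand), the desaturases of polyunsaturated fatty acids, are neighbours on chromosome 19. Fads1 had 26.8, 27.4, 26.7 and 32.7 CPM in LPS-treated libraries without serine and 25.6, 26.3, 26.6 and 26.8 CPM with serine, against 105, 88.8, 104 and 64.1 CPM in untreated libraries without serine and 110, 98.9, 118 and 102 CPM with serine. No LPS-treated library exceeded 32.7 CPM and no untreated one was under 64.1 CPM. Fads1 fell in both media, with log2 changes of -1.68 ± 0.14 (adjusted p = 2.97e-08) without serine and -2.03 ± 0.14 (adjusted p = 3.04e-09) with serine. Fads2 had 0.304, 0.694, 0.748 and 0.585 CPM in LPS-treated libraries without serine and 0.744, 1.04, 0.678 and 0.605 CPM with serine, against 1.83, 2.37, 1.28 and 2.02 CPM in untreated libraries without serine and 1.82, 4.402, 3.52 and 1.53 CPM with serine. At these low counts its LPS-treated libraries were still all under the untreated ones, and it fell in both media, with log2 changes of -1.68 ± 0.44 (adjusted p = 0.00366) without serine and -1.86 ± 0.39 (adjusted p = 0.000668) with serine.

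Scd2 (chr19:44293676-44306864, plus strand), a stearoyl-CoA desaturase, made the largest fall of any tested member. It had 1.22, 1.21, 4.86 and 1.75 CPM in LPS-treated libraries without serine and 0.298, 2.25, 5.76 and 1.01 CPM with serine, against 11.5, 7.02, 21.03 and 5.73 CPM in untreated libraries without serine and 14.2, 9.93, 26.8 and 12.7 CPM with serine. Replicate 3 was highest in each of the 4 groups, and within each medium all LPS-treated libraries were under all untreated ones. The falls were -2.37 ± 0.62 (adjusted p = 0.00389) without serine and -2.76 ± 0.61 (adjusted p = 0.00102) with serine.

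Scd1 (chr19:44394451-44407709, minus strand), the neighbouring desaturase gene, had at most 1.19 CPM in any library. The log2 ratio of Scd2 to Scd1 counts, with 0.5 added to each, averaged 2.63 ± 1.12 after LPS against 5.42 ± 1.93 untreated without serine, and 2.60 ± 0.58 against 5.79 ± 1.23 with serine (SD, n = 4). The differences of -2.79 and -3.19 had exact two-sided permutation p = 0.0571 and p = 0.02857, the smallest possible, and adjusted values of 0.152 and 0.114. With so few Scd1 counts, the size of the ratio depends on the added 0.5.

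The remaining fatty acid genes passed in neither medium in the 16-library model with TMM scaling. Acly, the ATP citrate lyase that supplies cytosolic acetyl-CoA, had 116.8 to 151 CPM after LPS and 79.3 to 152 CPM untreated. It changed by 0.00 ± 0.14 (adjusted p = 0.985) without serine, or by -0.16 (adjusted p = 0.0458) without replicate 4 of untreated cells, and by 0.04 ± 0.14 (adjusted p = 0.821) with serine. Total-count scaling turns these to -0.59 (adjusted p = 0.00598) and -0.57 (adjusted p = 0.00732). Acaca, the acetyl-CoA carboxylase, had 5.78 to 10.7 CPM after LPS and 3.04 to 13.5 CPM untreated, and changed by -0.47 ± 0.27 (adjusted p = 0.144) without serine and -0.39 ± 0.26 (adjusted p = 0.219) with serine. Without replicate 4 of untreated cells without serine these were -0.69 (adjusted p = 0.00185) and -0.39 (adjusted p = 0.0313). Total-count scaling of all 16 libraries made Acaca pass in both media, at -1.07 (adjusted p = 0.00374) without serine and with adjusted p = 0.00464 with serine, as did a paired model of the 2 groups with serine (-0.40, adjusted p = 0.0187). Acss2, an acetyl-CoA synthetase, had 4.26 to 5.76 CPM after LPS and 3.07 to 5.57 CPM untreated, and changed by 0.27 ± 0.19 (adjusted p = 0.266) without serine and 0.21 ± 0.18 (adjusted p = 0.355) with serine, which total-count scaling turns to -0.32 and -0.40. Elovl6, an elongase, had at most 1.50 CPM and was not tested.

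In the authors' deposited table for LPS with serine 9 of 32 listed members were marked higher and 8 lower. The authors' deposited table for LPS without serine marked 3 higher and 5 lower of 32. In the authors' deposited tables for the 2 withdrawals no member was marked. Some members under the threshold used here were left unmarked by the authors. With serine Mvk was one (authors' adjusted p = 0.0359), and without serine Mvk (0.0178) and Ebp (0.026) were others. The authors' marks thus cannot be compared directly with the calls made here. Shares of all genes marked are not given, so these counts have no background.

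With serine withdrawal most sterol genes had small negative fold changes, and the 16-library model called none of them. In LPS-treated cells 0 of 31 members passed, against 6 genes higher (0.0545%) and 1 lower (0.00909%) of 11004. Still, 25 of 31 fold changes were negative, with a median of -0.27 over sterol genes, -0.17 over fatty acid genes and 0.00 over all genes. Of the sterol genes 14 of 23 had less CPM without serine in all 4 replicate pairs, against 16% of all genes, and none had more in all 4. Of 8 fatty acid genes 3 were lower in all 4 pairs and 1, Fads1, was higher. Groups that did not overlap, all lower without serine, were found for Idi1, Hsd17b7, Srebf2 and Scap among sterol genes and Acaca and Acly among fatty acid genes, 4 of 23 and 2 of 8, against 3.31% of all genes lower and 4.27% higher. In the same libraries the summed dendritic cell markers did not overlap either, at 8.97 to 11.9 CPM without serine and 12.4 to 15.4 CPM with serine, and their part in the member values was not tested.

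Libraries with the same replicate number deviated together, so a model with the replicate number as a block applies too. With the block and all 16 libraries 0 members passed, against 0.663% of all genes higher and 0.227% lower. When replicate 4 of untreated cells without serine was left out of it, 7 members fell and 0 rose, against 4.98% of all genes higher and 3.32% lower: Hmgcs1, Cyp51, Msmo1, Hsd17b7, Sc5d, Srebf2 and Acly. Without the block, leaving out that library called Acly alone, lower, against 1.01% of all genes higher and 0.396% lower. The spread is shared over groups in these models, so a library of untreated cells affects a comparison it does not enter. The common biological coefficient of variation was 20.9% over 16 libraries and 3.40% in a model of the 8 LPS-treated libraries with the block.

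In that last model, chosen after seeing the data, 14 of 28 tested members fell and 0 rose without serine, against 10.5% of 9989 genes lower and 12.1% higher. They were 12 of 22 sterol genes and 2 of 6 fatty acid genes. The median was -0.24 over sterol genes, -0.17 over fatty acid genes and 0.00 over all genes. Leaving out each replicate number in turn left 8 to 11 members lower and 0 higher, the lowest without replicate 1, the male pair, where 9.61% of all genes were higher and 7.97% lower, against 7.58 to 8.84% lower over these 4 models.

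Hmgcs1, at the head of the pathway, averaged 68.7 ± 12.3 CPM without serine and 94.2 ± 14.1 CPM with serine (SD, n = 4) and fell by 0.47 ± 0.06 (adjusted p = 2.73e-08) in LPS-treated cells. It was lower in each of the 4 pairs although the ranges overlapped. Idi1 averaged 3.24 ± 0.433 CPM without serine and 4.98 ± 0.712 CPM with serine and fell by 0.62 ± 0.22 (adjusted p = 0.0359), with no overlap. The Idi1 call was lost without replicate 1, 2, 3 or 4 in turn.

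Sqle had 16.1, 11.3, 16.8 and 21.6 CPM in LPS-treated libraries without serine, and 21.3, 19.9, 20.2 and 28.6 CPM in those with serine. It fell by 0.46 ± 0.11 (adjusted p = 0.000958), and each pair was lower without serine. Cyp51 fell by 0.61 ± 0.08 (adjusted p = 8.53e-08) and Msmo1 fell by 0.54 ± 0.07 (adjusted p = 1.17e-07), both lower in 4 of 4 pairs. In the 16-library model Cyp51 had adjusted p = 0.802, or 0.256 with the block, and Msmo1 0.895, or 0.318. Sqle had 0.785 there, or 0.369 with the block.

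Hsd17b7, a ketosteroid reductase of the same stretch, had 3.197, 3.64, 4.49 and 6.24 CPM in LPS-treated libraries without serine, and 6.698, 7.08, 6.78 and 8.87 CPM in those with serine. Even its highest value without serine was under the lowest with serine, and it fell by 0.77 ± 0.19 (adjusted p = 0.00173), the largest change of the 28. Sc5d fell by 0.43 ± 0.10 (adjusted p = 0.000698) and Stard4 fell by 0.56 ± 0.14 (adjusted p = 0.00145). Fdps fell by 0.42 ± 0.15 (adjusted p = 0.0324), a call kept without replicate 4 and lost without replicate 1, 2 or 3.

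Among the regulators Srebf2, Scap and Insig1 also fell. Srebf2 averaged 165 ± 15.1 CPM without serine and 198 ± 10.98 CPM with serine and fell by 0.27 ± 0.04 (adjusted p = 1.35e-06). Scap fell by 0.21 ± 0.06 (adjusted p = 0.0083) and Insig1 fell by 0.19 ± 0.07 (adjusted p = 0.0361). Insig2 gave -0.04 ± 0.09 (adjusted p = 0.819) and did not pass. Calls of Scap were lost without replicate 1, those of Insig1 without replicate 1, 3 or 4 and those of Stard4 without replicate 1.

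Among fatty acid genes Acly averaged 122 ± 4.79 CPM without serine and 146 ± 3.76 CPM with serine and fell by 0.26 ± 0.05 (adjusted p = 1.83e-05). Acaca had 5.78, 7.46, 8.04 and 6.04 CPM in LPS-treated libraries without serine, and 8.48, 9.67, 8.13 and 10.7 CPM in those with serine, and fell by 0.44 ± 0.16 (adjusted p = 0.0463), a call kept when replicate 3 was left out and lost without replicate 1, 2 or 4. Fasn gave -0.20 ± 0.11 (adjusted p = 0.193), Fads1 0.10 ± 0.09 (adjusted p = 0.485) and Srebf1 0.12 ± 0.06 (adjusted p = 0.135), none past the threshold.

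**Figure D4:**
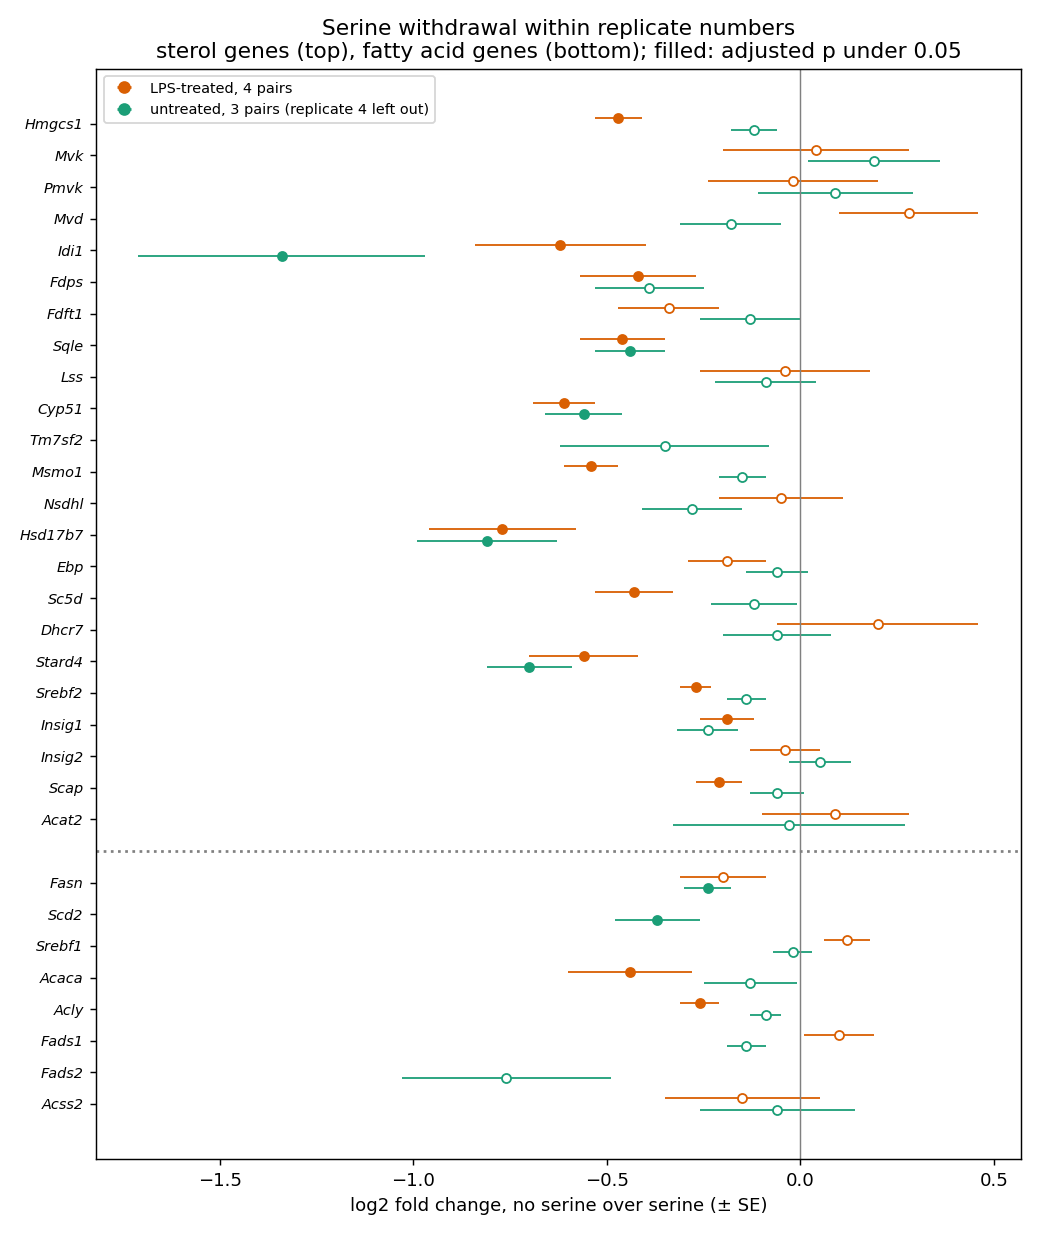
Points give the log2 fold change of libraries without serine over those with serine within replicate numbers, for 4 LPS-treated pairs and for 3 untreated pairs with replicate 4 left out, with bars of 1 SE and filled points for an adjusted p under 0.05. Members not tested in a model have no point. All filled points lie left of 0, 14 in LPS-treated and 7 in untreated cells. Over all genes 10.5% were lower and 12.1% higher in the LPS-treated model, and 2.99% and 3.98% in the untreated one. Both models were chosen after seeing the data. With all 4 untreated pairs, or without replicate 1, 2 or 3, 0 members passed.

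In untreated cells 0 of 31 members passed in the 16-library model, against 0% of all genes in either direction, with 548 genes at an unadjusted p under 0.05. With the block 9 genes (0.0818%) were higher and none of the members passed, and DESeq2 called 12 genes higher and 1 lower. With the block and without replicate 4 of untreated cells without serine, 0 members passed, against 0.63% of all genes higher and 0.081% lower. The median was -0.14 over sterol genes, -0.30 over fatty acid genes and 0.01 over all genes, and 23 of 31 values were negative. Without that library the medians of the unblocked model were -0.17, -0.15 and 0.01, and 27 of 31 values were negative. Lower in all 4 pairs were 6 of 23 sterol genes and 4 of 8 fatty acid genes, against 9.87% of all genes. Nsdhl, Hsd17b7 and Fasn did not overlap, lower without serine, against 1.32% of all genes lower and 1.46% higher.

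Idi1 had 0.558, 0.594, 1.03 and 1.69 CPM in untreated libraries without serine, and 1.82, 1.74, 1.76 and 1.67 CPM in those with serine. Replicates 1 to 3 without serine were under all 4 with serine, and replicate 4 lay within their range. The change was -1.08 (95% interval -1.70 to -0.46). Hsd17b7 had 3.19, 3.76, 4.23 and 3.04 CPM in untreated libraries without serine, and 4.85, 6.14, 8.93 and 7.38 CPM in those with serine. Its groups did not overlap, and the change was -0.91 (95% interval -1.40 to -0.43). Stard4 gave -0.75 (95% interval -1.22 to -0.27) and was lower in 4 of 4 pairs. Idi1, Hsd17b7 and Stard4 had the largest changes of the tested members here, and their intervals are not adjusted for the number of genes tested. In the model of all libraries without the block, each had an adjusted p of 0.816, so none passed.

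A model of the untreated pairs alone, with the block and without replicate 4, was also chosen after seeing the data. With all 4 pairs it called 0 members, and without replicate 1, 2 or 3 also 0. Without replicate 4 it called 7 members lower and 0 higher, against 3.98% of 10805 genes higher and 2.99% lower. Idi1 fell by 1.34 ± 0.37 (adjusted p = 0.0228) and Hsd17b7 fell by 0.81 ± 0.18 (adjusted p = 0.00435). Stard4 fell by 0.70 ± 0.11 (adjusted p = 6.33e-05), Sqle fell by 0.44 ± 0.09 (adjusted p = 0.00159) and Cyp51 fell by 0.56 ± 0.10 (adjusted p = 0.000483). The 2 fatty acid genes were Scd2, at -0.37 ± 0.11 (adjusted p = 0.0305), and Fasn, at -0.24 ± 0.06 (adjusted p = 0.0191). In the blocked model of the other 15 libraries none of the 7 passed, with adjusted p = 0.0571 for Idi1, 0.0542 for Hsd17b7, 0.0851 for Stard4, 0.267 for Cyp51, 0.332 for Sqle, 0.481 for Fasn and 0.593 for Scd2. The coefficient of variation was 3.45% without replicate 4 and 21.4% with all 4 pairs.

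The withdrawals in LPS-treated and untreated cells were not shown to differ. The test of the difference itself called 0 of 11004 genes, 0% in each direction, with 253 at an unadjusted p under 0.05, and DESeq2 called 1. The widest member differences, LPS-treated minus untreated, were -0.83 (95% interval -1.66 to 0.01) for Msmo1 and -0.61 (95% interval -1.45 to 0.23) for Ebp, which were -0.36 and -0.10 without replicate 4 of untreated cells without serine. The widest positive one was 0.55 (95% interval 0.00 to 1.10) for Mvd, or 0.57 without that library. Idi1 had 0.46 (95% interval -0.32 to 1.25), or 0.69 without that library, and Hmgcs1 -0.32 (95% interval -0.79 to 0.16), intervals that leave room for a difference either way. Neither ratio passed in a withdrawal: Insig1 to Insig2 changed by -0.15 with LPS (p = 0.571) and by -0.40 untreated (p = 0.114), and Scd2 to Scd1 by 0.03 (p = 0.971) and -0.37 (p = 0.686), by exact permutation tests.

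A wider list of 44 genes of the same pathways, 41 of them tested, was counted beside the members. With LPS 11 rose and 11 fell without serine, against 27.1% and 29.7% of all genes, and 13 rose and 8 fell with serine, against 27.6% and 28.2%. Acsl1, a fatty acyl-CoA synthetase, rose by 3.45 ± 0.16 and 3.50 ± 0.16 in the same order of media. Pdss1, which makes the ubiquinone side chain from isoprenoid units, rose by 2.35 ± 0.29 and 2.87 ± 0.30, and Rnf139, a ubiquitin ligase of the endoplasmic reticulum, by 1.99 ± 0.12 with serine. Lpin1, the phosphatidate phosphatase of glycerolipid synthesis, fell, at -4.03 ± 0.43 and -5.64 ± 0.50, as did Acsl3, another acyl-CoA synthetase, at -1.26 ± 0.22 and -1.40 ± 0.22. Tmem97, a sterol-regulated membrane protein, fell by 1.34 ± 0.30 without serine, and Soat1, which esterifies cholesterol, fell by 1.37 ± 0.14 with serine. These genes kept their direction with total-count scaling. No gene of the list passed in either withdrawal in the 16-library model, and in the paired model of LPS-treated cells 5 of 39 were lower and 6 higher without serine, against 10.5% of all genes lower and 12.1% higher.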

How the data were processed

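The authors' deposited count table holds whole read counts of 43430 Ensembl genes in 16 RNA-seq libraries. Its 24 other per-sample columns were not used. The submitters' processing notes name Trimmomatic 0.33, STAR, SAMtools, HTSeq, edgeR and mm10 without saying what each was used for. Log2 fold changes and adjusted p-values computed by the authors were read from their 4 tables of group comparisons, and the calls marked in those tables are cited. Gene lengths were taken as deposited. The library kit does not mark strand, so genes that overlap on opposite strands are not told apart. Apart from strand, counts of close copies are also uncertain.

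The tests used edgeR 4.0.16 in R 4.3.3. Its default filter on low counts kept 11004 genes, libraries were scaled by TMM, and all 16 libraries of the 4 groups entered 1 robust quasi-likelihood fit. Tests were two-sided, with Benjamini-Hochberg adjustment over all genes of each of 5 comparisons and a threshold of 0.05. CPM values are TMM-scaled, log2 levels use a prior count of 2, ratios of counts were compared by exact permutation tests over libraries, and the scripts were tested on simulated data. DESeq2 1.42.0, a replicate block, total-count scaling, no filter and leaving out each library were alternatives. Models of 2 groups with the block were added after seeing the data.

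Deviations from group means of same-numbered libraries correlated across genes at 0.217 to 0.415 and 0.125 to 0.397 for LPS with and without serine, and at 0.185 to 0.609 and 0.333 to 0.66 for withdrawal in untreated and LPS-treated cells. Each same-numbered pair was over 0.1. Libraries of different numbers reached 0.122 and 0.095 with LPS, and 0.079 and 0.141 in the withdrawals, in the same order. Within each comparison same-numbered pairs were thus all higher, but 0.1 alone does not separate them. The numbers were taken to pair the samples in pair counts, models with the block and sign exchanges of ratios. The main fit and the other permutation tests were unpaired, so their p-values do not use the pairing. None of 120 library pairs was a copy (lowest chi-square per degree of freedom 2.04).

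The members and lists were chosen with earlier results of these data known. Values in every library are given for members called by the model with or without the block (up to 20) and for the SREBP regulators. Other members are given by range or count, except Sqle, Hsd17b7 and Acaca, whose values were added after they were seen. Promoters are from RefSeq (GRCm38.p6, the same assembly as mm10), gene positions (mm10) are those in the deposited table, and symbols were matched to its Ensembl identifiers through GENCODE names for GRCm38.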

Additional observations from a re-analysis of the deposited data

Results flagged for a closer look

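Of 132 sets of 4 values, 1 for each member and group, 13 stood out because 1 library lay far from the other 3 of its group by Dixon's criterion, which chance meets in about 1 of 20 groups.

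Replicate 4 of untreated cells without serine accounts for 6. It had 112 CPM of Msmo1, against 38.4 to 48.0 in its 3 companions, 72.9 CPM of Ebp against 24.3 to 25.5, and 42.2 CPM of Cyp51 against 16.02 to 19.1. Scap was also high, at 56.7 CPM against 38.8 to 40.3, and so was Pmvk, at 11.5 CPM against 5.001 to 5.84. Acly was low, at 79.3 CPM against 133.5 to 139.8. This library had the fewest counts, 2871477, and the part of its depth or RNA quality in these values was not tested.

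LPS-treated cells without serine held 5. Replicate 3 had 5.23 CPM of Mvk against 2.92 to 3.12 and 4.86 CPM of Scd2 against 1.21 to 1.75. Replicate 1 had 2.28 CPM of Tm7sf2 against 1.495 to 1.56 and 97.7 CPM of Srebf1 against 82.0 to 84.6. Replicate 4 had 32.7 CPM of Fads1 against 26.7 to 27.4. In LPS-treated cells with serine, replicate 4 had 28.6 CPM of Sqle against 19.9 to 21.3, and replicate 3 had 6.61 CPM of Lss against 3.72 to 4.03.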

How the results depend on the processing

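The number of members called was 17 for LPS with serine and 16 for LPS without serine, and leaving out each library in turn gave 15 to 19 and 12 to 18. For withdrawal it was 0 in untreated cells (0 to 0), 0 in LPS-treated cells (0 to 1, the 1 being Acly without replicate 4 of untreated cells without serine) and 0 for their difference (0 to 0). With the block and without that library, 7 members were called for withdrawal in LPS-treated cells. The added models of 2 groups with the block called 14 there, and 8 to 11 without each replicate number, and 0 to 7 in untreated cells. The replicate block on 16 libraries changed no count of members by over 1.5 times. Among all genes it gave 73 higher and 25 lower for withdrawal in LPS-treated cells, against 6 and 1 without it, and DESeq2 gave 92 and 18, with no adjusted p for 17 members. Without replicate 4 of untreated cells without serine the counts were 112 and 44, or 553 and 369 with the block, and in the 2-group model 1208 and 1051. The cause was not tested.

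Total-count scaling gave 1666 genes higher and 6407 lower for LPS with serine, and 1686 and 6566 without it, against 3041 and 3098, and 2984 and 3266, with TMM. It changed the sign of 9 members with serine and 8 without it, and in 10 of these the value passed on at least 1 of the scales. With serine these were Hmgcs1 (-0.07), Fdft1 (-0.07), Msmo1 (-0.58), Hsd17b7 (-0.50), Insig2 (-0.54), Srebf1 (-0.53) and Acly (-0.57). Without serine they were Hmgcs1 (-0.34), Scap (-0.06) and Srebf1 (-0.28). The shift follows from the scaling itself. Of the other member results under the alternatives, 3661 stayed on their side of the threshold, 57 lost the call and 62 gained one. Of the 3661, 95 changed sign (in values to 2 decimals), none of them past the threshold.

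The log2 ratio of Scd2 to Scd1 for LPS with serine stayed at -3.19 with signs exchanged within replicate pairs (exact p = 0.125, the smallest possible), and was -2.75 with 0.1 added to counts (exact p = 0.0857). Without serine it was -2.60 with 1 added (exact p = 0.02857). The ratio of Insig1 to Insig2 for LPS without serine stayed at 0.82 with paired signs (exact p = 0.125). Leaving out each library gave -3.52 to -2.61 and -3.36 to -1.87 for Scd2 to Scd1 with LPS, -1.29 to 0.20 and -0.46 to 0.37 in the withdrawals, and 0.40 to 0.70, 0.71 to 0.89, -0.50 to -0.26 and -0.26 to 0.02 for Insig1 to Insig2. For Insig1 to Insig2 the p fell to 0.02857 without replicate 4 of untreated cells with serine (LPS with serine, 0.70) and without replicate 2 of them (withdrawal untreated, -0.50). The cause was not tested. Among single members the block on 16 libraries moved only Sc5d for LPS without serine across the threshold. Depth limits the low members: Scd1 and Elovl6 were not tested, and Fads2 had 0.304 to 4.40 CPM.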
